A study of Homo sapiens with 4 samples.

Results

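The genes described here encode 36 enzymes of purine and pyrimidine nucleotide metabolism: the de novo pathways, salvage, the nucleotide kinases and the enzymes that supply or remove deoxynucleotides. They were taken from a list of symbols drawn up by pathway, with earlier results of these data known. All 36 were found once each among the 60682 genes of the table used. The series sequenced total RNA of JJN3 cells that carried a short hairpin RNA against WNK1 (shWNK1, n = 2 libraries) or the hairpin labelled NS, taken here as the control (n = 2 libraries), both brought in by transduction. JJN3 is an established human line of multiple myeloma, a plasma cell cancer, and WNK1 is a kinase known for controlling chloride cotransport. Both groups were grown alike in a mixture of DMEM and IMDM with fetal bovine serum. The labels give no hairpin sequence, no time after transduction and no word on whether the replicates are separate transductions, so the spread behind each p-value is that between library preparations and may be technical.

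Cells build nucleotides from small precursors or recycle them from bases and nucleosides. De novo purine synthesis assembles the ring step by step on phosphoribosyl pyrophosphate (PRPP) to give inosine monophosphate (IMP), the branch point to AMP and GMP, while the pyrimidine ring is made before it is joined to PRPP. Ribonucleotide reductase turns ribonucleotides into deoxynucleotides, and several of these enzymes, among them thymidylate synthase and thymidine kinase, are known for being made mainly in S phase. Many of the genes are textbook targets of the transcription factor MYC, which binds the DNA word CACGTG, and plasma cell tumours draw on nucleotides for both DNA replication and heavy RNA synthesis.

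Total counts were 16973521 and 20164122 in shWNK1 libraries, against 17491537 and 17392619 in NS libraries. WNK1, the targeted gene, had 325 and 403 counts in shWNK1 and 4911 and 4148 counts in NS libraries, the direction the labels call for. Summed over 8 plasma cell markers, the level was 1976 to 1984 CPM in shWNK1 and 2190 to 2211 CPM in NS libraries (CPM, counts relative to the TMM-scaled library total). All 8 were detected in every library, and 5 of them fell and 2 rose. For comparison, 20.2% of all tested genes were called lower and 18.5% higher. The log2 fold changes of the falls were -1.32 for SDC1, -0.98 for MZB1, -0.598 for CD38, -0.233 for IRF4 and -0.171 for XBP1. PRDM1 rose by 0.247 and JCHAIN by 0.251 on this scale, and TNFRSF17 was not called. Falls and rises partly offset each other in the sum. The T cell, myeloid and erythroid markers, 3 genes each, summed to at most 0.821 CPM in any library. The mature B markers summed to 2.98 and 3.21 CPM in shWNK1 and 8.15 and 6.68 CPM in NS libraries, nearly all from PAX5. Of the stromal and epithelial markers, EPCAM stood at 109 to 126 CPM while COL1A1 and PDGFRB had at most 3 counts in any library.

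Transcripts of nucleotide synthesis enzymes were mostly lower in shWNK1 cells, by small amounts. All 36 genes passed the low-count filter, and of these 23 fell, 0 rose and 13 were not called (edgeR quasi-likelihood test, called at a Benjamini-Hochberg adjusted p under 0.05 over all 14864 genes tested). That is 63.9% of the list, whereas 20.2% of all tested genes were called lower and 18.5% were called higher. Since the list was chosen with earlier results of these data known, this contrast is a description and not an independent test. At an unadjusted p under 0.05 the same edgeR test gave 25 lower and 0 higher, against 23.4% lower and 22.6% higher of all tested genes. The median log2 fold change was -0.28 over the 36 genes and 0.005 over all tested genes, and 34 of the 36 values were below 0. The sizes were modest: 3 of the 36 genes (PPAT, TYMS and ATIC) fell at least 1.5-fold, while 0 rose as far. Of all tested genes, 7.16% fell and 7.76% rose by that much. Because RNA came from whole cultures, fewer cells in a given cycle phase and less transcript per cell cannot be told apart.

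Abundant genes were called lower more often throughout these libraries. At a mean level of 100 CPM or more over the 4 libraries, 14 of the 20 nucleotide synthesis genes fell and 0 rose, whereas 40.9% of the 2332 tested genes at that level were called lower and 19.6% higher. Between 20 and 100 CPM, 9 of 12 fell and 0 rose, whereas 25.8% of 5259 genes were called lower and 24.2% higher. All 4 genes under 20 CPM (ADSL, CTPS2, NME2 and SAMHD1) were not called. The groups did not overlap for 30 of the 36 genes, 29 of them lower and 1 (CMPK1) higher in shWNK1. Of all tested genes, 33.7% were lower and 34.7% higher in shWNK1 without overlap.

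The count held its direction under the other settings, with 0 of the 36 genes called higher in any of them. DESeq2 called 18 genes lower (19.2% of all genes it gave an adjusted p, with 15.1% higher) and limma-voom called 23 (20.1% of all tested genes, with 18.3% higher). RLE factors gave 23 lower (20.4%, with 18.4% higher) and upper-quartile factors 20 (18%, with 21.2% higher). The number was 23 with no low-count filter (10.4%, with 8.89% higher) and 23 with a minimum of 1 CPM in 2 libraries (22.3%, with 20.7% higher). With the replicate number as a block it was 22 (18.9%, with 17.1% higher). Leaving out shWNK1 replicate 1 gave 17 (12.4%, with 10.5% higher), and leaving out shWNK1 replicate 2 also gave 17 (12.9%, with 10.4% higher). Leaving out NS replicate 1 gave 25 (19.1%, with 17% higher), and leaving out NS replicate 2 gave 20 (17.8%, with 17.5% higher).

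**Figure D1:**
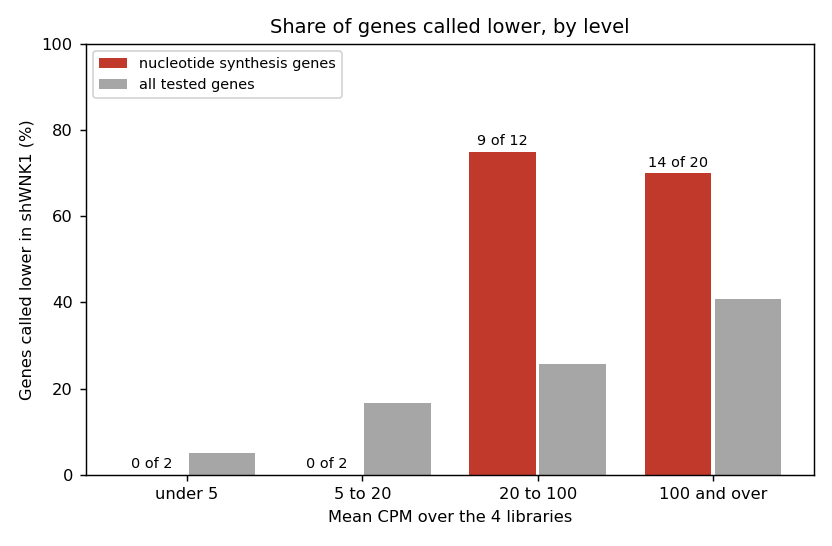
Share of genes called lower in shWNK1 (percent, vertical axis) by mean level over the 4 libraries (CPM, horizontal axis), for the nucleotide synthesis genes (red) and all tested genes (grey). The red bars stand at 14 of 20 genes against 40.9% at 100 CPM and over, and at 9 of 12 against 25.8% between 20 and 100 CPM. The lower bins hold 2 nucleotide synthesis genes each, none called.

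Levels between genes are compared per length, as CPM per kilobase of annotated exon (RPKM). IMPDH2 was the most abundant of the 36 on this scale, at 137 RPKM in shWNK1 and 173 RPKM in NS cells, followed by APRT (97.3 RPKM in shWNK1, 135 RPKM in NS) and DCTPP1 (71.2 RPKM in shWNK1, 106 RPKM in NS). At the low end were SAMHD1 (0.438 RPKM in shWNK1, 0.411 RPKM in NS), NME2 (1.40 RPKM in shWNK1, 1.79 RPKM in NS) and ADSL (1.63 RPKM in shWNK1, 1.95 RPKM in NS). The order was stable at its ends, with the same genes in the 6 highest places in shWNK1 and NS cells (IMPDH2, APRT, DCTPP1, IMPDH1, PAICS and TK1). PPAT moved furthest down, standing at place 29 of 36 in shWNK1 and place 23 in NS cells. Exon lengths include every annotated isoform, so genes with long, rarely used exons read low on this scale. All coding bases of NME2 and 84.4% of those of ADSL lie in exons of another same-strand gene. Reads over several genes may have gone uncounted, so the low places of NME2 and ADSL are uncertain.

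**Figure D2:**
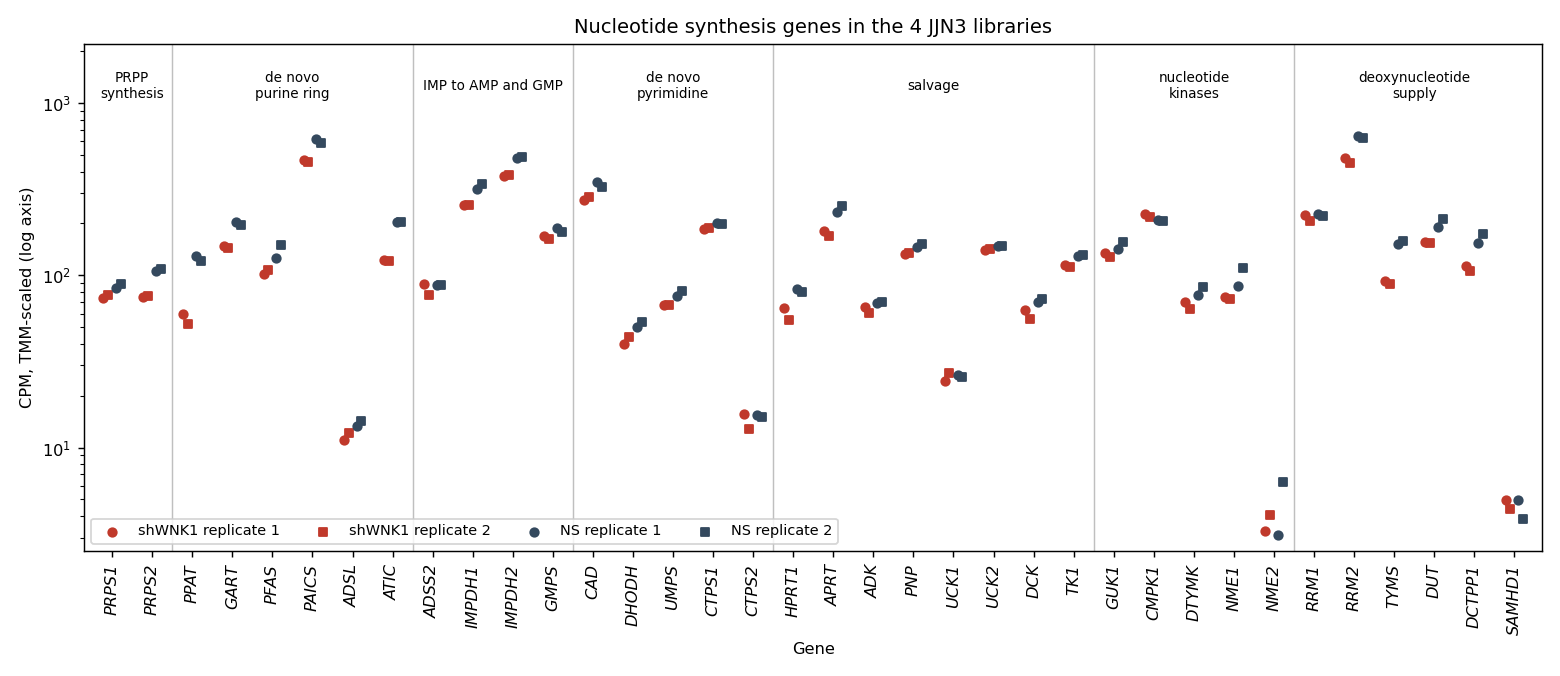
Level of each of the 36 genes in each library (CPM on a log axis), ordered by step of the pathway; red points are shWNK1 and dark points NS libraries, with circles for replicate 1 and squares for replicate 2. For most genes both red points lie below both dark points, with the widest gap at PPAT, and CMPK1 is the gene with both red points above.

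PRPP synthetases make the activated sugar that the purine, pyrimidine and base salvage routes use. PRPS2 had 75.1 and 75.6 CPM in shWNK1 and 106 and 108 CPM in NS libraries. Its replicates lay close together, and it fell 1.42-fold (log2 fold change -0.51, SE 0.073, edgeR adjusted p = 9.3e-07). PRPS1, the other synthetase, likewise encoded on the X chromosome, had 73.7 and 77.3 CPM in shWNK1 and 84.7 and 89.2 CPM in NS libraries (log2 fold change -0.20, SE 0.076, edgeR adjusted p = 0.033). The PRPS1 call was lost when shWNK1 replicate 1 was left out (edgeR adjusted p = 0.298), and likewise for shWNK1 replicate 2 (0.113) or NS replicate 2 (0.113). It was also lost with DESeq2 (0.0998) and with upper-quartile factors (0.0871). Per length, PRPS1 made up 50.8% and 51.8% of the pair in shWNK1 and 45.5% and 46.4% in NS libraries, so the groups did not overlap in this share. The share was not tested, and levels of single genes often did not overlap either (33.7% of all tested genes lower, 34.7% higher).

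De novo purine ring synthesis held the largest fall of the 36 genes. The counts of calls by step rest on few genes each, and are set beside 20.2% of all tested genes called lower and 18.5% higher. Of its 6 genes, 5 fell and ADSL was not called, and the 5 calls stood with each library left out in turn. PPAT, the amidotransferase of the committed step, had 59.3 and 51.8 CPM in shWNK1 and 129 and 122 CPM in NS libraries (1035 and 1065 counts against 2208 and 2057). Its groups lay far apart compared with the gap between replicates, and it fell 2.26-fold (log2 fold change -1.18, SE 0.079, edgeR adjusted p = 1.3e-13). ATIC, the bifunctional enzyme that closes the ring to IMP, had 122 and 121 CPM in shWNK1 and 204 and 203 CPM in NS libraries, a 1.68-fold fall (log2 -0.75, SE 0.063, edgeR adjusted p = 2.4e-11). Between them in the pathway, the trifunctional GART (146 ± 1.91 CPM in shWNK1 and 199.9 ± 6.34 CPM in NS, mean ± SD, n = 2 each; log2 -0.46, edgeR adjusted p = 4.6e-07), the glutamine-using PFAS (105 ± 3.54 CPM in shWNK1, 138 ± 17.9 CPM in NS; log2 -0.40, edgeR adjusted p = 9.2e-05) and the bifunctional PAICS (461 ± 6.62 CPM in shWNK1, 599 ± 22.6 CPM in NS; log2 -0.38, edgeR adjusted p = 2.2e-06) fell 1.3- to 1.4-fold. The NS libraries differed for PFAS, with 125 CPM in replicate 1 and 150.5 CPM in replicate 2, and its log2 fold change was -0.25 when NS replicate 2 was left out, against -0.52 when NS replicate 1 was. ADSL, the lyase that acts at a step of the ring and again on the way to AMP, had 192 and 249 counts in shWNK1 and 228 and 242 counts in NS libraries (log2 -0.26, 95% interval -0.57 to 0.06, edgeR adjusted p = 0.20). Of its annotated coding bases, 84.4% lie in exons of another, unnamed same-strand gene, and the recorded counting command does not ask for reads over several genes to be counted, so its level is uncertain.

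PPAT and PAICS are neighbours on chromosome 4 that run in opposite directions from starts 126 bases apart in the annotation of the table (PPAT 56393362 to 56435615, minus strand; PAICS 56435741 to 56464579, plus strand; hg38). Both fell, by different amounts: the 95% interval of the log2 fold change was -1.34 to -1.02 for PPAT and -0.49 to -0.26 for PAICS, and the PPAT to PAICS ratio of CPM was 0.127 and 0.114 in shWNK1 and 0.211 and 0.209 in NS libraries. The ratio did not overlap between groups, but with 2 libraries each this is common. Among all tested genes 33.7% were lower and 34.7% higher in shWNK1 without overlap. The change of the ratio was not itself tested. The start of PAICS in the table lies inside the RefSeq promoter window of PPAT. GART also starts near an opposite-strand gene, SON, which fell by 0.30 on the log2 scale (edgeR adjusted p = 0.00082). Pairs of this kind did not always move together: PFAS and DTYMK fell while their opposite-strand neighbours CTC1 and ING5 rose (log2 0.30 and 0.26, edgeR adjusted p = 0.0065 and 0.032). ADK was not called, while its neighbour AP3M1 fell by 1.14 (edgeR adjusted p = 7.1e-12).

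The word CACGTG was searched on both strands of RefSeq promoter windows (GRCh38.p14, 250 bases before to 50 after a start). Of several windows for a gene, the one nearest the gene's start in the counts table was used, a choice made after seeing the data, and 34 of the 36 genes had one. For GART, PFAS, PNP, DCK and RRM2 that window's start still lay 452 to 1870 bases from the start in the table. The word was present in 7 of the 34 windows (PPAT, PAICS, ATIC, DHODH, DCK, NME1 and DCTPP1), in 10.2% of 10536 windows of tested genes and in 7.26% of all 35116 windows. The 7 were among the 22 genes that fell and had a window, and 0 were among the 12 not called. Over all tested genes the word was in 12.1% of 2346 called lower, 9.43% of 6035 not called and 10.2% of 2155 called higher. With the window listed first for each gene the count was 6 of 34, without PAICS, whose first window lies far from the start in the table. Of these genes, the 3 with the largest falls are shown with the word in capitals, each read 5′ to 3′ on the gene's own strand. The PPAT copy is also the PAICS copy, since it lies just past the start of PAICS, and ATIC held a second copy.
PPAT, chr4:56435780-56435809, minus strand: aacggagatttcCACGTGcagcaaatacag
ATIC, chr2:215312001-215312030, plus strand: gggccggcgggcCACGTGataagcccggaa
DCTPP1, chr16:30429792-30429821, minus strand: ggagggttcctcCACGTGgtcgggaagcgg
The words TTGGCGC and TTCCCGC, forms of the element read by E2F factors, were searched in the same way. TTGGCGC was present in 2 of 22 genes that fell and 0 of 12 not called, and in 5.08% of windows of tested genes (5.80% of those called lower, 4.94% not called, 4.69% called higher). TTCCCGC was present in 4 of 22 genes that fell and 1 of 12 not called, and in 10.4% of windows of tested genes (12.3% of those called lower, 9.86% not called, 9.74% called higher). A match of letters is a description of the window and not evidence of binding.

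In an earlier look at these data the 6-base word AGTATC was more frequent in 3′ UTRs of falling genes, so its presence was looked up here in the GENCODE v29 basic transcripts. In at least 1 transcript it was found in 34.9% of 2805 genes called lower, 22.5% of 6587 not called and 19.5% of 2490 called higher, sets whose median 3′ UTR lengths were 1360, 1248 and 1733 bases. Among the nucleotide synthesis genes it was found in 6 of the 23 that fell (PPAT, PAICS, ATIC, UMPS, DCK and RRM2) and in 6 of the 13 not called (GMPS, CTPS1, CTPS2, ADK, UCK2 and SAMHD1). So a smaller share of the nucleotide synthesis genes that fell held the word than of those not called. That is the reverse of the order over all tested genes, but the comparison took no account of 3′ UTR length. The longest 3′ UTR per gene ran from 58 to 5189 bases in genes that fell and from 237 to 6334 bases in those not called. The order over all tested genes is no independent result, since the word came from these same data. The part of the word in the falls was not tested. The sites of the 2 carriers that fell most and of UCK2, a carrier that was not called, are shown with the word in capitals.
PPAT, chr4:56394244-56394273, minus strand: ctttggggaattAGTATCaacttacaatcc
ATIC, chr2:215349733-215349762, plus strand: aaaaaataaaacAGTATCtcttaatcactg
UCK2, chr1:165909769-165909798, plus strand: caggcctgggttAGTATCctgaggacacag
PPAT and UCK2 each held 2 copies in the longest 3′ UTR. Among the strongest falls, TYMS and DCTPP1 lacked it.

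At the branch point, the GMP side fell at its dehydrogenases. IMPDH2, the major IMP dehydrogenase of dividing cells and the rate-limiting enzyme of guanine nucleotide synthesis, had 376 and 384 CPM in shWNK1 and 477 and 485 CPM in NS libraries (log2 -0.34, SE 0.056, edgeR adjusted p = 1.1e-05). Its paralogue IMPDH1 had 254 and 255 CPM in shWNK1 and 318 and 338 CPM in NS libraries (log2 -0.36, SE 0.059, edgeR adjusted p = 7.2e-06). The proportions of the pair overlapped between groups, with IMPDH1 at 33.9% and 33.5% of the pair per length in shWNK1 and 33.5% and 34.6% in NS libraries. GMPS, which aminates XMP to GMP, averaged 166.0 ± 3.79 CPM in shWNK1, against 183 ± 7.35 CPM in NS (log2 -0.14, 95% interval -0.27 to -0.01, edgeR adjusted p = 0.081; 0.016 without NS replicate 2). ADSS2, the first enzyme on the AMP side, had 89.2 and 76.6 CPM in shWNK1 and 88.1 and 87.6 CPM in NS libraries, and the groups overlapped (log2 -0.09, 95% interval -0.25 to 0.07, edgeR adjusted p = 0.42).

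The log2 fold changes of the de novo pyrimidine genes lay between -0.30 and -0.09. In the main fit 20.2% of all tested genes were called lower, and with DESeq2 19.2% were. Of 5, 3 fell and 2 were not called, but no call was left when shWNK1 replicate 1 was omitted (0 of 5), 1 when NS replicate 2 was, and 1 with DESeq2. CAD, the large protein that carries out the opening reactions, had 274 and 283 CPM in shWNK1 and 346 and 325 CPM in NS libraries (log2 -0.27, SE 0.059, edgeR adjusted p = 0.00045; 0.060 without shWNK1 replicate 1). The mitochondrial dehydrogenase DHODH averaged 42.1 ± 2.72 CPM in shWNK1, against 51.8 ± 2.87 CPM in NS (log2 -0.30, edgeR adjusted p = 0.010). It lost its call when shWNK1 replicate 1 (adjusted p = 0.20) or NS replicate 2 (0.055) was omitted, and with DESeq2 (0.0551). UMPS, which makes UMP, averaged 67.0 ± 0.0904 CPM in shWNK1, against 78.4 ± 4.10 CPM in NS (log2 -0.23, edgeR adjusted p = 0.022), and its adjusted p was 0.114 to 0.163 when any library other than NS replicate 1 was omitted, 0.0779 with DESeq2 and 0.0589 with upper-quartile factors. The CTP synthetases were not called: CTPS1, important for lymphocyte proliferation, averaged 187 ± 3.10 CPM in shWNK1, against 199.6 ± 0.303 CPM in NS (log2 -0.09, 95% interval -0.22 to 0.03). CTPS2 averaged 14.2 ± 1.99 CPM in shWNK1, against 15.2 ± 0.248 CPM in NS (log2 -0.10, 95% interval -0.40 to 0.21).

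**Figure D3:**
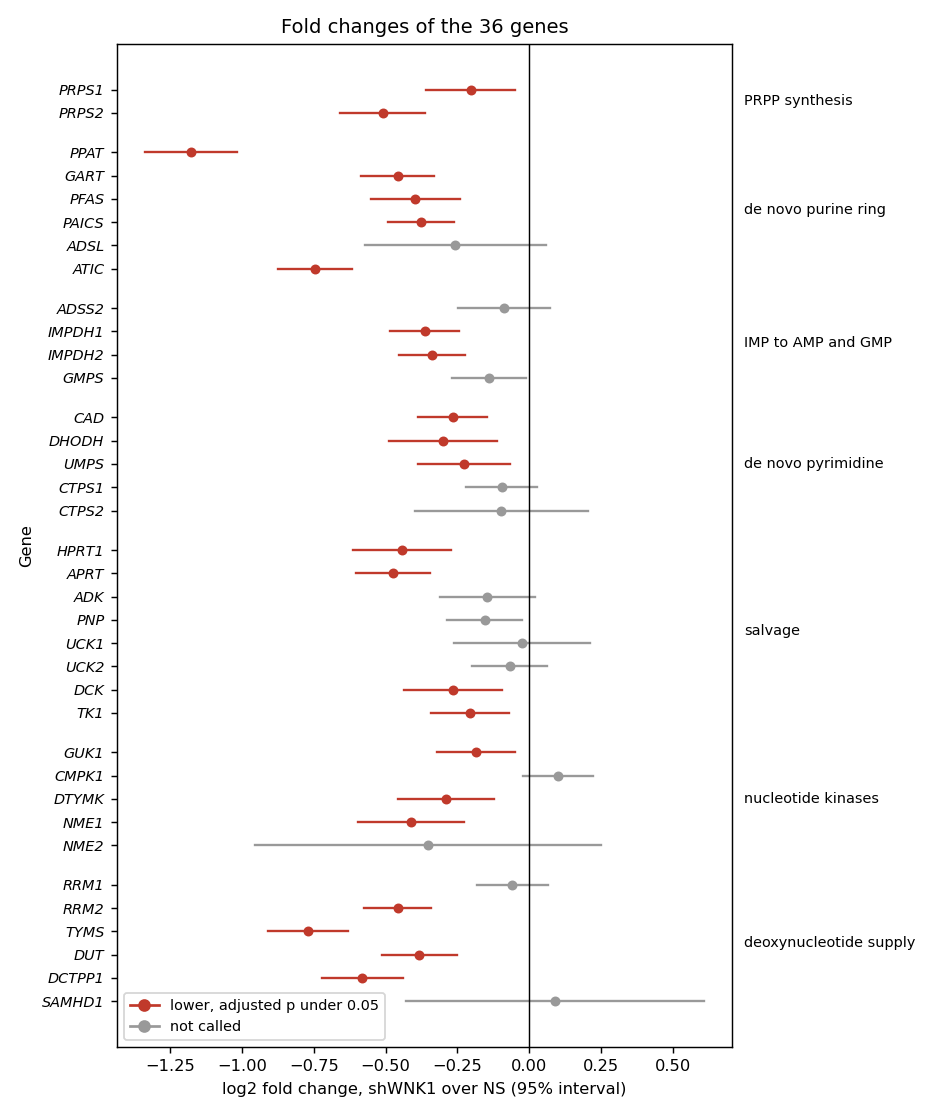
Log2 fold change of each gene, shWNK1 over NS, with its 95% interval from the edgeR fit, grouped by step; red genes were called lower and grey genes were not called. PPAT stands furthest left at -1.18, and CMPK1 and SAMHD1 are the genes with values above 0.

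Among 8 salvage genes the base-recycling enzymes fell most. APRT, which returns adenine to AMP, had 179.9 and 169.5 CPM in shWNK1 and 233 and 253 CPM in NS libraries, a 1.39-fold fall (log2 -0.47, SE 0.063, edgeR adjusted p = 2.5e-07). HPRT1, which returns hypoxanthine and guanine, had 64.8 and 55.2 CPM in shWNK1 and 83.1 and 79.8 CPM in NS libraries (log2 -0.44, SE 0.084, edgeR adjusted p = 7.9e-05). Both kept their calls with any library left out. The called changes of the deoxynucleoside kinases were smaller. DCK, the cytosolic deoxycytidine kinase, averaged 59.6 ± 5.09 CPM in shWNK1, against 71.6 ± 2.19 CPM in NS (log2 -0.26, edgeR adjusted p = 0.012; 0.274 without shWNK1 replicate 2 and 0.0548 with DESeq2). TK1, the S phase thymidine kinase, averaged 113 ± 2.09 CPM in shWNK1, against 130.1 ± 1.14 CPM in NS (log2 -0.21, edgeR adjusted p = 0.015; 0.113 and 0.176 without shWNK1 replicate 1 and 2). The nucleoside enzymes ADK, PNP, UCK1 and UCK2 were not called, with log2 fold changes of -0.15 to -0.03. The adenosine kinase ADK averaged 63.0 ± 3.69 CPM in shWNK1, against 69.6 ± 0.971 CPM in NS (95% interval -0.31 to 0.02). UCK1 averaged 25.6 ± 2.02 CPM in shWNK1, against 26.1 ± 0.562 CPM in NS (95% interval -0.26 to 0.21). For the uridine-cytidine kinase UCK2, which averaged 141 ± 0.914 CPM in shWNK1, against 148 ± 1.24 CPM in NS, the 95% interval was -0.20 to 0.06. PNP, the purine nucleoside phosphorylase, was close to the threshold (134 ± 1.31 CPM in shWNK1, against 149 ± 3.33 CPM in NS; edgeR adjusted p = 0.057; 0.021 without NS replicate 1). In the main fit 4 of the 8 salvage genes were called lower and 0 higher, whereas 20.2% of all tested genes were called lower and 18.5% higher. The calls of DCK and TK1 did not hold with every library left out.

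Of the 5 kinases that phosphorylate nucleotides, 3 fell, 0 rose and 2 were not called. Among all tested genes 20.2% were called lower and 18.5% higher. DTYMK, the thymidylate kinase, had 70.2 and 63.5 CPM in shWNK1 and 77.2 and 85.9 CPM in NS libraries (log2 -0.29, edgeR adjusted p = 0.0051; 0.172 without shWNK1 replicate 2). GUK1, the guanylate kinase, had 135 and 128 CPM in shWNK1 and 143 and 156 CPM in NS libraries, the smallest change that was called (log2 -0.18, SE 0.067, edgeR adjusted p = 0.029). That call was lost with DESeq2 (0.0777), with upper-quartile factors (0.0877), with the replicate number as a block (0.0584), and on omitting shWNK1 replicate 1 (0.124), shWNK1 replicate 2 (0.303) or NS replicate 2 (0.179). CMPK1, which phosphorylates UMP and CMP, was the one kinase above its control in both libraries, with 227 and 218 CPM in shWNK1 and 209 and 206 CPM in NS libraries, but it was not called (log2 0.10, 95% interval -0.02 to 0.22, edgeR adjusted p = 0.19). NME1, a nucleoside diphosphate kinase, had 75.1 and 73.0 CPM in shWNK1 and 86.1 and 111 CPM in NS libraries (log2 -0.41, SE 0.090, edgeR adjusted p = 0.00059). Its NS libraries differed from each other by more than the lower of them differed from shWNK1, and the log2 fold change was -0.21 without NS replicate 2. NME2, its tandem neighbour on chromosome 17, had 57 and 84 counts in shWNK1 and 53 and 107 counts in NS libraries (log2 -0.35, 95% interval -0.95 to 0.25; 0.25 without NS replicate 2 and -0.78 without NS replicate 1, where edgeR adjusted p = 0.029). All of the coding bases of NME2 and 75.6% of those of NME1 lie in exons of the readthrough gene NME1-NME2, which itself had 2 to 6 counts, so the levels of both genes are uncertain. Of the kinases called lower, DTYMK and GUK1 did not keep the call with every library left out.

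Of 6 genes of deoxynucleotide supply, 4 fell and 2 were not called, whereas 20.2% of all tested genes were called lower. RRM2, the small subunit of ribonucleotide reductase that is limiting in S phase, had 477 and 449 CPM in shWNK1 and 642 and 630 CPM in NS libraries, a 1.37-fold fall (log2 -0.46, 95% interval -0.57 to -0.34, edgeR adjusted p = 7.5e-08). RRM1, the large subunit, had 223 and 207 CPM in shWNK1 and 227 and 221 CPM in NS libraries, and was not called (log2 -0.06, 95% interval -0.18 to 0.07, edgeR adjusted p = 0.50). The RRM2 to RRM1 ratio of CPM was 2.14 and 2.17 in shWNK1 and 2.83 and 2.85 in NS libraries. The ratio did not overlap between groups, though the difference between the subunits was not itself tested. Levels of single genes often did not overlap (33.7% of all tested genes lower, 34.7% higher). TYMS, which makes thymidylate from deoxyuridylate, had 93.0 and 89.1 CPM in shWNK1 and 151 and 159 CPM in NS libraries. Its fall, 1.70-fold, was the largest of this step (log2 -0.77, SE 0.068, edgeR adjusted p = 7.3e-11). DCTPP1 and DUT, which hydrolyse dCTP and dUTP, also fell, by just under 1.5-fold and by 1.3-fold: DCTPP1 had 114 and 106 CPM in shWNK1 and 154 and 174 CPM in NS libraries (log2 -0.58, edgeR adjusted p = 5.2e-08), and DUT had 155 and 153 CPM in shWNK1 and 191 and 212 CPM in NS libraries (log2 -0.38, edgeR adjusted p = 1.3e-05). These 4 calls stood with each library left out. SAMHD1, the hydrolase that lowers deoxynucleotide pools, was scarce, with 87 and 91 counts in shWNK1 and 85 and 65 counts in NS libraries (log2 0.09, 95% interval -0.43 to 0.61, edgeR adjusted p = 0.82). Because counting ignored strand, bases shared with opposite-strand genes limit some of these values: 52.1% of TYMS coding bases are shared, mainly with ENOSF1 (1330 and 1515 counts in shWNK1, 1284 and 1307 in NS). For DCTPP1 it was 41.6%, shared with ZNF771, which had 298 and 302 counts in shWNK1 and 192 and 204 counts in NS libraries. The part of these neighbours in the values of TYMS and DCTPP1 was not tested. Smaller shares of coding bases lie in exons of other genes for DUT (34.6%), UCK2 (31.4%), PNP (22.3%) and DCK (20.9%).

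**Figure D4:**
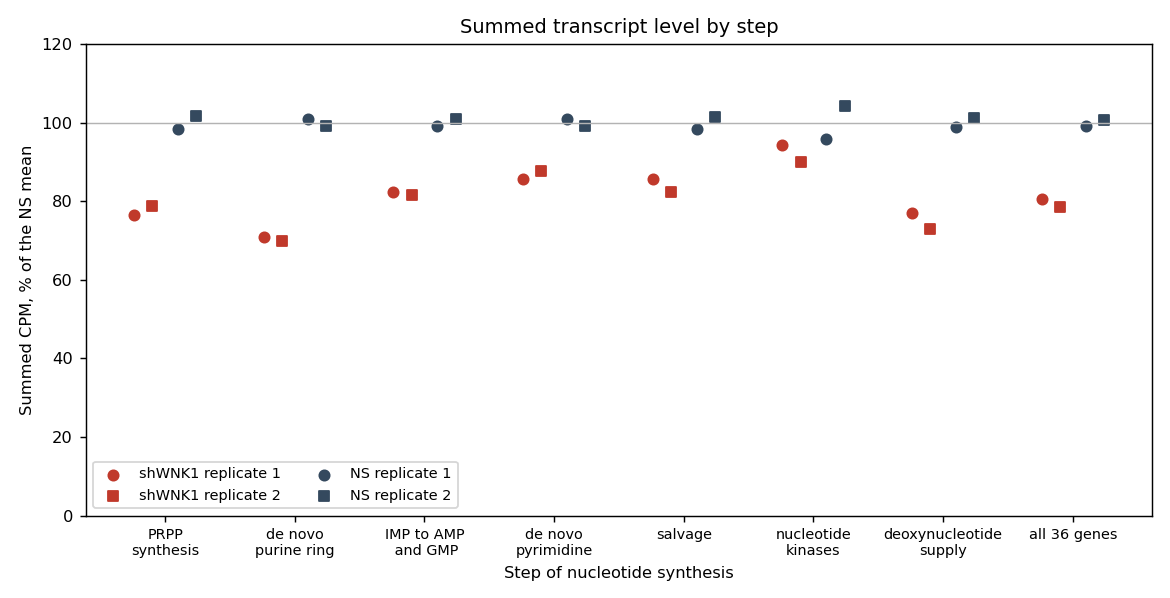
Summed CPM of each step in each library as a percentage of the mean of the NS libraries (vertical axis, from 0); red points are shWNK1 and dark points NS libraries. The de novo purine ring genes stand lowest in shWNK1 at 70.9% and 69.8%, deoxynucleotide supply at 77.1% and 72.9%, and the nucleotide kinases highest at 94.2% and 89.9%.

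Summed over all 36 genes, the transcripts came to 4889 and 4773 CPM in shWNK1 and 6032 and 6124 CPM in NS libraries, a ratio of 0.795. By step, the ratio ran from 0.703 for the purine ring genes and 0.75 for deoxynucleotide supply to 0.866 for de novo pyrimidine synthesis and 0.921 for the nucleotide kinases. The kinases were the step whose groups came closest, at 510 and 487 CPM in shWNK1 and 518 and 565 CPM in NS libraries. In each of the other steps both shWNK1 libraries were below both NS libraries by more than the gap between replicates. These sums are weighted towards the abundant genes, with PAICS the largest single part of the purine ring sum and RRM2 that of the deoxynucleotide sum.

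The remaining genes of nucleotide metabolism, a list of 60 nucleotidases, deaminases, further kinases, phosphorylases, catabolic enzymes and transporters, went both ways. Of 45 tested, 11 fell, 9 rose and 25 were not called, with a median log2 fold change of 0.04, and 15 were too low to test. These shares, 24.4% and 20%, lie near the 20.2% and 18.5% of all tested genes. This list too was chosen with earlier results of these data known. Some of the 11 falls and 9 rises were no longer called when 1 library was left out. RRM2B, the alternative small subunit of ribonucleotide reductase that serves cells outside S phase, had 14.7 and 13.9 CPM in shWNK1 and 56.4 and 46.5 CPM in NS libraries. It fell 3.61-fold (log2 -1.85, SE 0.117, edgeR adjusted p = 3.7e-14), further than any of the 36 genes. MTAP, which salvages adenine from methylthioadenosine, fell 1.63-fold (59.3 and 59.1 CPM in shWNK1, 96.0 and 96.3 CPM in NS), and the mitochondrial adenylate kinase AK4 fell 1.84-fold (edgeR adjusted p = 6.6e-09 for MTAP and 1.5e-07 for AK4). TK2, the mitochondrial thymidine kinase, had 12.3 and 17.6 CPM in shWNK1 and 5.98 and 6.50 CPM in NS libraries, a 2.40-fold rise (log2 1.26, SE 0.186, edgeR adjusted p = 1.8e-06). The rise had the same sign with any library left out (log2 0.97 to 1.5). Of 8 tested deaminases and GMP reductases, 4 rose (the deaminases ADA, AMPD2 and AMPD3 and the reductase GMPR2), 1 fell (ADA2) and 3 were not called (DCTD, ADAL and AMPD1). Among all tested genes 18.5% rose and 20.2% fell, and a group of 8 is small. GMPR2, ADA2, DCTD, ADAL and AMPD1 are named here after their values were seen. The ADA2 call was lost with DESeq2 (adjusted p = 0.0818) and on omitting shWNK1 replicate 1 (edgeR adjusted p = 0.0744), shWNK1 replicate 2 (0.0861) or NS replicate 1 (0.421). Adenosine deaminase ADA rose 1.58-fold (61.9 and 63.6 CPM in shWNK1, 37.8 and 41.6 CPM in NS), and the AMP deaminases AMPD3 and AMPD2 rose 1.80- and 1.28-fold (edgeR adjusted p = 3.7e-07, 1.6e-06 and 3.3e-05 for ADA, AMPD3 and AMPD2).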

How the data were processed

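The authors deposited raw counts per gene. Per the file headers, fragments were counted by featureCounts v2.0.0 against GENCODE v34 (primary assembly), ignoring strand, with a minimum mapping quality of 20, mates both mapped and chimeric pairs left out. The submitters' processing notes also name Trimmomatic, STAR and the build hg38; their versions are not given in the sources used here. Exon lengths are those the authors' table gives. One gene broken over 3 lines and 45 Y copies of pseudoautosomal genes were left out, and 60369 identifiers matched a symbol.

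Counts were tested two-sided with edgeR 4.0.16 in R 4.3.3 (filterByExpr, TMM factors, robust glmQLFit, glmQLFTest; group as the only term, 2 residual degrees of freedom), adjusting over all 14864 tested genes. SE is the log2 fold change divided by the root of the F statistic. The code was tested on simulated data. Alternatives were DESeq2 1.42.0, limma-voom (limma 3.58.1), RLE and upper-quartile factors, other low-count filters, a replicate block and leaving out each library. The members and lists were chosen with earlier results of these data known. All members are described; from the other nucleotide genes, the rule named up to 4 rising and 4 falling called genes of smallest p whose higher group averaged 5 CPM or more, of which 1 is not reported here.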

Additional observations from a re-analysis of the deposited data

How the results depend on the processing

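Of the 23 genes called lower, 15 kept the call and the direction under all 11 alternatives, and 8 (PRPS1, CAD, DHODH, UMPS, DCK, TK1, GUK1 and DTYMK) lost it under at least 1. The median log2 fold change was -0.32 to -0.21 with 1 library left out. The other nucleotide genes still went both ways with each library left out in turn, though the number of calls changed.

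Uncalled genes whose sign turned were UCK1 (0.014 with upper-quartile factors, -0.11 to 0.056 with 1 library left out), ADSS2 (-0.19 to 0.015), CTPS2 (-0.24 to 0.038), NME2 (-0.78 to 0.25) and SAMHD1 (-0.081 to 0.29); the cause was not tested. The labels number the replicates 1 and 2 in both groups, and the authors' column names give same-numbered libraries the same first letter, A or B. The deviations of same-numbered libraries were uncorrelated (r = -0.005 over tested genes). Noise of weakly expressed genes enters this value, so it cannot settle whether the libraries are pairs. With the replicate block 22 genes were called lower, the median was -0.28, and 11 of the other nucleotide genes fell and 9 rose. Low counts limit NME2 and SAMHD1, which had 53 to 107 counts a library. For NME2, the sharing of all its coding bases with NME1-NME2 also leaves the level uncertain. With the RefSeq window listed first for each gene, an alternative chosen after seeing the data, CACGTG was in 6 of the 34 windows in place of 7, TTGGCGC in 1 in place of 2 and TTCCCGC in 5 with either choice.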
